A study of Homo sapiens with 6 samples.

Results

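Nearby alternative 3′ splice sites are places where an intron with 1 start can end at either of 2 positions a few bases apart. In the deposited isoform models, every pair of introns of a gene was taken that shares the 5′ splice site and whose 3′ splice sites lie 1 to 30 bases apart. This gave 3061 pairs, of which 1966 had at least 10 reads of the 2 forms in each of the 6 libraries and were kept. They are part of the 14823 kept pairs of introns that share a 5′ splice site at any distance, lie in 1163 genes and use 1791 5′ splice sites. The measure is upstream-site usage, the percentage of a pair's reads on isoforms that end the intron at the 3′ site nearer to the 5′ splice site, which gives the longer exon.

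The study read full-length cDNA on nanopores in HBEC3kt, a line of human bronchial epithelial cells immortalised in culture. It has 3 U2AF1 S34F libraries, in which a serine of the splicing factor U2AF1 is replaced by phenylalanine, and 3 wild-type libraries of the same line. Each genotype has 2 isolates: replicate 1 is isolate 1, replicate 2 is isolate 2, and replicate 3 is isolate 2 a second time, in a library marked B2, while replicates 1 and 2 are marked B1. The sources used here do not say what B1 and B2 stand for, how the isolates were derived or how the mutation was introduced. The p-values cover no spread beyond these libraries. In the main test they rest more on the spread pooled over all pairs than on a pair's own. Assigned reads were 811255, 451540 and 1014868 in S34F replicates 1 to 3, and 1720292, 1286512 and 1584167 in wild-type replicates 1 to 3. U2AF1 itself was read at a CPM (reads scaled to library size) of 252 to 436 in S34F libraries and of 322 to 522 in wild-type libraries, and read counts cannot show which base the transcripts carry, so the genotype label was not checked. All 8 basal epithelial marker genes were read in both genotypes (summed CPM 10600 to 15300 in S34F, 7680 to 12700 in wild type), none of 4 blood markers was read, and of 3 mesenchymal markers VIM was read (CPM 175 to 232 in S34F, 127 to 184 in wild type) while COL1A1 and COL1A2 were not.

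U2AF1 is the small subunit of U2AF, the protein that marks the end of an intron early in splicing: its large partner binds the pyrimidine tract and U2AF1 contacts the AG. Where a second AG lies close by, the splicing machinery can end the intron at either one, and the RNA then differs by the bases between them. Pairs 3 bases apart are known as NAGNAG or tandem acceptors, and in coding sequence they add or leave out a single amino acid. In other cells, S34F is known to favour introns that end in CAG over introns that end in TAG.

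The sequences below show the pairs on which the results turn and an example of each kind of pair. They run 5′ to 3′ on the gene's strand, and capitals mark the AG that ends an intron. They were read from GENCODE 29 transcripts matched by gene ID and intron length, and coordinates are in hg19. Where no transcript runs through the intron end, the sequence starts at the first base of the longer exon and holds the downstream AG only.
FDPS, chr1:155279820-155279863, plus strand: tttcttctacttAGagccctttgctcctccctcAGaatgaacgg
COX4I1, chr16:85839325-85839361, plus strand: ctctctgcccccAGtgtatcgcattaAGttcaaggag
MIR205HG 2 bases apart, chr1:209602512-209602536, plus strand: gtatttttttgtAGAGgcggggttt
MIR205HG 4 bases apart, chr1:209605074-209605100, plus strand: tttgtttcctctAGaaAGgaccaacca
RPL18, chr19:49119451-49119491, minus strand: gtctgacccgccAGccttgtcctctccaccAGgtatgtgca
MRPL22, chr5:154330363-154330389, plus strand: gcttctttcatttcacAGtgttttacc
S100A6, chr1:153507828-153507851, minus strand: gccctctgctgccAGctccaagcc
PFN1, chr17:4850103-4850129, minus strand: ggttcctcttccAGccAGctgaggtgg
GNAS, chr20:57478569-57478594, plus strand: tttcaatcccactgcAGtgagaaggc
S100A2, chr1:153534056-153534067, minus strand: gAGaaagtggat
THRAP3, chr1:36767154-36767165, plus strand: cAGtttcgagcc
FDPS has a TAG site followed by a CAG site. MIR205HG ends its upstream introns in TAG too, followed by GAG in the closer pair and by AAG in the other. In GNAS the upstream intron ends in TG, a known exception to the AG rule, and the downstream one in CAG.

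Sites 3 bases apart were the commonest, with 381 of the 1966 pairs. Another 235 pairs were 4 bases apart, 164 were 5 and 139 were 6, and 54 were 1 or 2 bases apart. In classes, 896 pairs lay 4 to 12 and 635 lay 13 to 30 bases apart. Over all distances 944 pairs (48%) differed by a multiple of 3, a share that includes all pairs 3 bases apart. A site counts as annotated in a pair where GENCODE 29 lists an intron of the gene with the same length as the pair's intron to it. The label thus belongs to the intron, and the same site can be annotated in some pairs and not in others. Both sites were annotated in 657 pairs, the upstream site alone in 976, the downstream site alone in 181 and neither in 152.

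**Figure D1:**
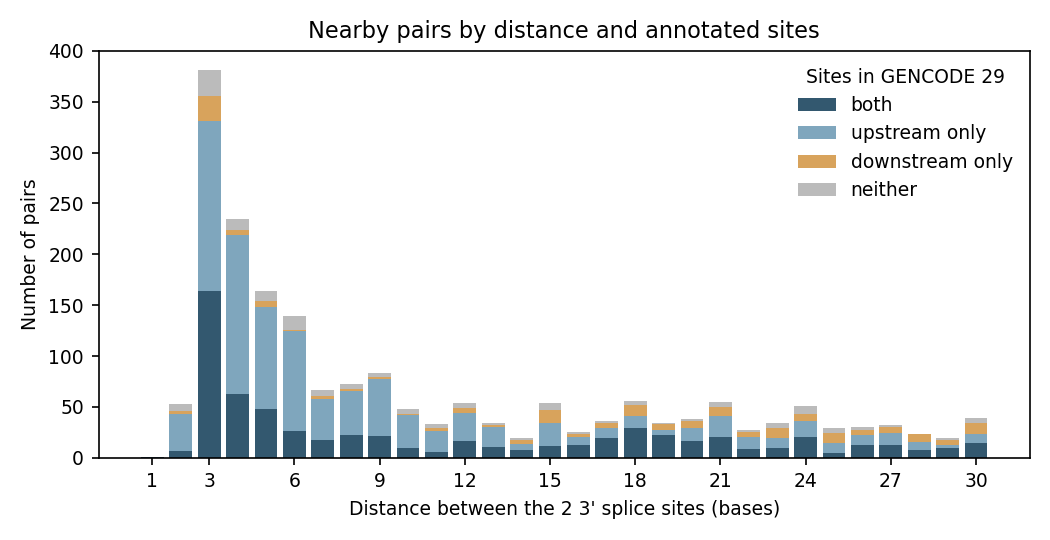
Number of kept pairs (vertical axis) at each distance between the 3′ splice sites in bases (horizontal axis). Colours mark the sites for which GENCODE 29 lists an intron of the same length in the gene. The bar at 3 bases holds 381 pairs, of which both sites are annotated in 164, and 235 pairs stand at 4 bases.

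The downstream intron end could be read for 1640 pairs and was an AG in 1632. The upstream one could be read for 765 pairs, since an annotated transcript has to run through it, and was an AG in 755. Of the pairs, 1540 lay in coding sequence, 165 in 5′ UTRs, 17 in 3′ UTRs and 30 in noncoding transcripts by that annotation. The 5′ splice site is shared with another nearby pair in 278 pairs, and 12 pairs have the same coordinates under 2 genes, so pairs are not independent of each other. S100A2, a calcium-binding protein gene of basal epithelium, held 22 pairs, GAPDH 15 and LAMB3, a laminin chain gene, 14, while 749 genes held 1 pair.

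In both genotypes the upstream site was the main one. It took most reads in 1506 pairs (76.6%), and median usage over pairs was 84.2% in S34F and 84.6% in wild type. The rarer form held a median of 10.4% of reads. It reached 5% in 1459 pairs and 20% in 514, and stayed below 1% in 89. The lead of the upstream site was widest at 1 to 2 bases (94.4% of pairs) and at 4 to 12 bases (91.9%), narrower at 3 bases (74.8%) and least at 13 to 30 bases (54.6%). Median usage was 84.9% in S34F and 87.6% in wild type at 1 to 2 bases, 71.6% and 72.1% at 3 bases, 88.8% and 89.0% at 4 to 12 bases, and 73.8% and 69.7% at 13 to 30 bases. Pairs 3 bases apart were also the most balanced, with a median rarer form of 22.4%, against 12.2% at 1 to 2, 10.4% at 4 to 12 and 5.17% at 13 to 30 bases.

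**Figure D2:**
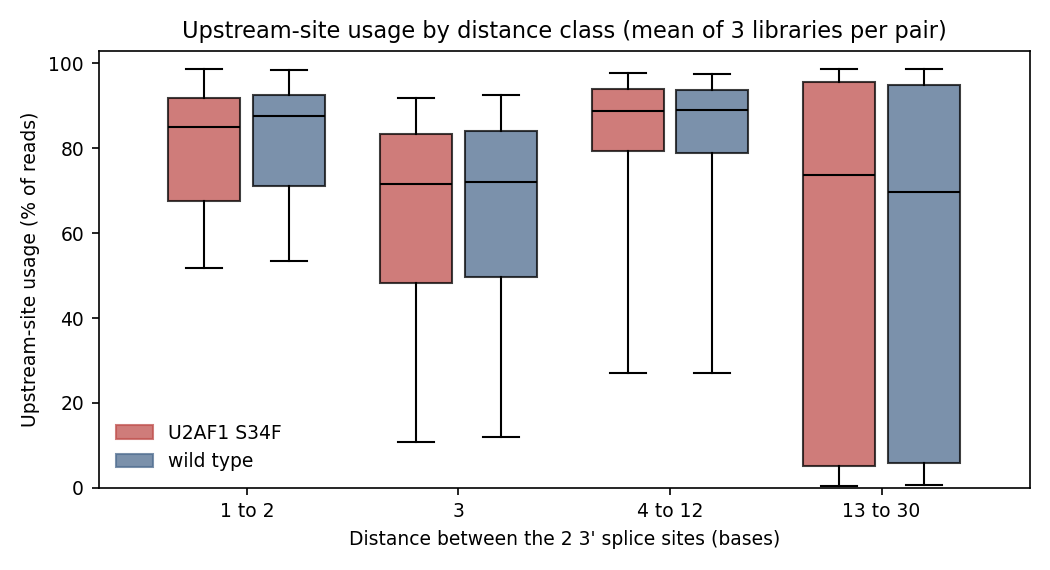
Upstream-site usage (% of a pair's reads, mean of 3 libraries) by distance class for S34F (red) and wild type (blue); boxes span the quartiles with the median as a line, and whiskers reach the 5th and the 95th percentile of pairs. The boxes of both genotypes lie close together in every class, with medians of 71.6% in S34F and 72.1% in wild type at 3 bases.

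Which site led followed the annotation. Where GENCODE 29 lists the intron to the upstream site alone, that site led in 97.4% of pairs. Where it lists the intron to the downstream site alone, the upstream site led in 10.5%. It led in 63.9% of the 657 pairs with both annotated and in 76.3% of the 152 pairs with neither. Among pairs with both sites annotated, those 3 bases apart were the nearest to even, with median usage of 64.2% in S34F and 64.6% in wild type over 164 pairs. With neither site annotated, the 25 pairs 3 bases apart had medians of 62.4% in S34F and 62.1% in wild type. At 13 to 30 bases, 254 pairs with both sites annotated had medians of 16.9% in S34F and 19.3% in wild type, so there the downstream site was usually the main one.

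At 3 bases apart the base before the downstream AG went with the balance. With A there (129 pairs) the upstream site led in 96.1% of pairs, and median usage was 79.6% in S34F and 79.9% in wild type. With G (35 pairs) it led in 91.4%, and the medians were 84.2% and 84.6%. With T (21 pairs) it led in 71.4%, with medians of 69.1% and 66.1%. With C (148 pairs) it led in 58.1%, with medians of 57.9% and 58.7%. Where the upstream triplet could be read as well, AAG before CAG was used upstream at 20.6% in S34F and 18.9% in wild type (medians, 9 pairs), and the upstream site led in none of these pairs. CAG before AAG was used upstream at 79.1% and 79.5% (26 pairs). The downstream base also went with the annotation: both sites were annotated in 22.5% of pairs with A, 20% with G, 71.4% with T and 71.6% with C. The parts of the base and of the annotation in the balance were not tested. These are descriptions of levels, and pairs of 1 gene share its reads.

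The deepest pairs showed levels that were close between genotypes. PFN1 (profilin 1, an actin-binding protein) had 76837 reads, the most of any pair, over a CAG site and a second CAG 4 bases on. Its upstream-site usage was 98.7%, 98.3% and 99.3% in S34F replicates 1 to 3, against 98.8%, 99.0% and 99.4% in wild type. In GSTP1 (glutathione S-transferase P), 3 bases apart, usage was 87.7%, 88.4% and 93.0% in S34F, against 89.9%, 90.2% and 95% in wild type. In both genes the ranges overlapped and the B2 library was the highest of its genotype.

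S100A2 was more balanced, with 66.3%, 65.6% and 75.9% in S34F libraries, against 65.1%, 67.6% and 78.5% in wild type over 36367 reads at 3 bases apart. JUP (plakoglobin, a junction protein) had 76.6%, 78.0% and 84.8% in S34F, against 79.4%, 80.8% and 87.8% in wild type. RPS14, a protein of the small ribosomal subunit with 63799 reads at its pair 7 bases apart, averaged 89.9% ± 2.64 in S34F and 91.5% ± 3.0 in wild type (SD, n = 3 each). The ranges overlapped in these genes too, and no pair chosen for its depth passed the test described below.

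At longer distances the main site was nearly exclusive in the deepest pairs. ANXA2 (annexin A2), 17 bases apart, used its upstream site at 98.3% ± 0.411 in S34F and 98.4% ± 0.339 in wild type, and GAPDH, 24 bases apart, at 97.7% ± 0.424 and 97.4% ± 0.936 (SD, n = 3 each). ACTB (beta actin), 21 bases apart in the 5′ UTR, ended its intron mostly at the downstream CAG, with upstream usage of 4.83% ± 1.68 in S34F and 5.04% ± 1.88 in wild type.

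Among pairs with both sites annotated, the deepest were read off after their values were seen. MYL6 (a myosin light chain), GAG before CAG 3 bases on, used the upstream site at 5.53%, 6.75% and 6.33% in S34F, against 7.58%, 7.06% and 5.49% in wild type. PTMA (prothymosin alpha), GAG before GAG, had 14.8%, 14.8% and 16.6% in S34F, against 22.5%, 20.2% and 17.2% in wild type. Every S34F library was below every wild-type one in PTMA, with a difference of -4.59 points that did not pass the test (edgeR unadjusted p = 0.145). CDK4 (a cell cycle kinase) had the steadiest intermediate level of these pairs: 2 TAG sites 16 bases apart in its 5′ UTR gave 30.8%, 31.9% and 32.4% in S34F, against 32.4%, 32.5% and 33.6% in wild type, on 26201 reads.

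The genotypes were compared with edgeR's quasi-likelihood test on 2 counts per library, fitted over all 14823 kept pairs, and a pair was called at a Benjamini-Hochberg adjusted p of 0.05. The fit gives the log2 odds ratio of upstream-site use, S34F over wild type. No nearby pair was called (0 of 1966), where 41 of all 14823 pairs were called (0.277%), and the smallest adjusted p of a nearby pair was 0.0969. At an unadjusted p under 0.05 stood 71 nearby pairs (3.61%), beside 7.87% of all pairs. Of these, 32 were higher in S34F (1.63% of nearby pairs, beside 3.18% of all pairs) and 39 lower (1.98%, beside 4.69%). DESeq2 and limma called no nearby pair, with 22 and 76 at an unadjusted p under 0.05, but they called only 6 and 0 of all 14823 pairs. With a term for B1 and B2 in the edgeR fit, 9 nearby pairs were called (0.458%, beside 1.16% of all pairs), 3 higher and 6 lower in S34F, and FDPS had the smallest p of them. Without wild-type replicate 3, the B2 library, THRAP3 and PCBP2 were called instead (edgeR adjusted p = 0.000108 and 0.000358), and their B2 values are given below. The fit with the B1/B2 term and the one without wild-type replicate 3 took the spread from all pairs together. A pair's own spread between libraries did not enter their p-values.

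The median size of the difference was 1.74 points, while the median SD between libraries was 3.21 points in S34F and 2.43 points in wild type. The difference was within 5 points in 1615 pairs (82.1%) and over 20 points in 9. Usage was higher in S34F in 934 pairs and lower in 1032, and the usage ranges of the genotypes did not overlap in 202 pairs (10.3%), against 14.2% of all pairs. By distance, the median difference was -1.17 points at 1 to 2 bases (14 pairs higher and 40 lower in S34F), -0.415 at 3 bases (171 and 210), -0.0959 at 4 to 12 bases (428 and 468) and 0.00855 at 13 to 30 bases (321 and 314). The median standard error of a pair's log2 odds ratio was 0.491. It was 0.37 for PFN1, the deepest pair, and 0.29 for FDPS, which had fewer reads.

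**Figure D3:**
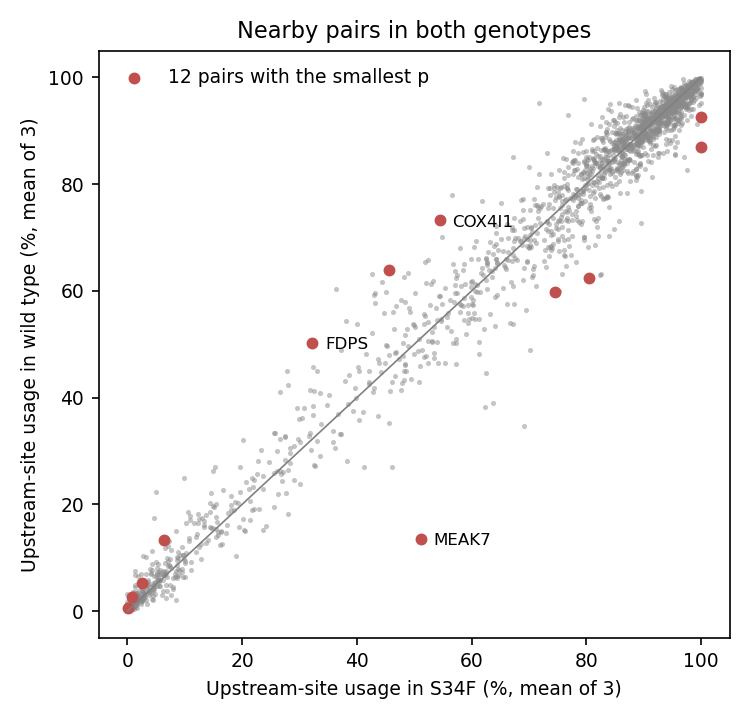
Mean upstream-site usage (%) of each kept pair in S34F (horizontal) and in wild type (vertical), with the diagonal of equal usage and the 12 pairs of smallest p in red. Points gather along the diagonal, FDPS lies above it (32.3% in S34F, 50.3% in wild type) and MEAK7 below it (51.1% in S34F, 13.5% in wild type).

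FDPS (ENSG00000160752.10, chromosome 1) encodes farnesyl diphosphate synthase, an enzyme of the mevalonate pathway that makes precursors of cholesterol and of protein prenyl groups. Its pair lies in coding sequence, with a TAG site and, 21 bases on, a CAG site, both annotated. Reads of the 2 forms numbered 624, 298 and 750 in S34F libraries and 1635, 909 and 1610 in wild-type libraries. The TAG site took 30.8%, 33.9% and 32.1% of them in S34F, against 51.9%, 47.9% and 51.2% in wild type.

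All 3 S34F libraries of FDPS were thus well below all 3 wild-type libraries, and each B2 library lay between the B1 libraries of its genotype. The difference was -18.1 points and the log2 odds ratio -1.09 (SE 0.29), with an edgeR adjusted p of 0.0969 over all pairs. It was called in 5 of 18 alternative fits and kept its sign in all 18. The adjusted p ran from 2.96e-10 in edgeR with the B1/B2 term to 0.809 in DESeq2. The B1/B2 fit took the spread between libraries from all pairs together, so the spread of FDPS itself did not enter. In the B1 libraries alone the log2 odds ratio was -1.08 and the edgeR adjusted p 0.0204.

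The same 2 FDPS sites were also reached from other 5′ splice sites. From the intron that starts at 155278868 the TAG site took 25%, 35.5% and 31.1% of reads in S34F, against 34%, 35.9% and 38.4% in wild type. From the intron that starts at 155279757, close to the sites, it took 80.6%, 92.3% and 81.2% in S34F, against 83.5%, 86.8% and 85.9% in wild type. The ranges overlapped in both, with log2 odds ratios of -0.42 and -0.22 (edgeR unadjusted p = 0.254 and 0.578), and the differences between the 3 introns were not tested. FDPS holds 5 nearby pairs at other sites, among them a TAG site followed by a CAG 12 bases on, used upstream at 91.5% ± 3.11 in S34F and 93.5% ± 3.0 in wild type (SD, n = 3 each). Another FDPS pair, 25 bases apart in the intron that starts at 155282174, had 598 reads and neither site annotated. It was used upstream at 79.2%, 78.6% and 76.1% in S34F, against 92.2%, 89.8% and 81.4% in wild type. Its ranges did not overlap either, with a log2 odds ratio of -1.13 (edgeR unadjusted p = 0.0145, adjusted p = 0.465). From the intron that starts at 155282187 (6708 reads), the same sites were used upstream at 97.4% ± 1.01 in S34F and 97.6% ± 1.06 in wild type. From the intron that starts at 155279997 the values were 92.2% ± 6.80 and 93.1% ± 1.96 (SD, n = 3 each). The ranges overlapped in both (edgeR unadjusted p = 0.834 and 0.382). In all, 2 of the 8 FDPS pairs stood at an unadjusted p under 0.05.

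MIR205HG, the host transcript of the microRNA miR-205 of epithelial cells, held 2 of the 12 pairs with the smallest p. At its pair 2 bases apart (TAG, then GAG), upstream usage was 77.4%, 72.2% and 74.1% in S34F, against 60.0%, 62.1% and 57.1% in wild type. At a pair 4 bases apart (TAG, then AAG) it was 46.9%, 48.6% and 41.5% in S34F, against 66.5%, 63.0% and 62.5% in wild type. That pair had 49, 35 and 53 reads in S34F libraries and 182, 108 and 120 in wild-type libraries. The S34F libraries were all higher at the closer pair and all lower at the other, with no overlap at either.

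The log2 odds ratio was 0.98 (SE 0.30) for the closer MIR205HG pair and -1.10 (SE 0.38) for the other, with edgeR adjusted p of 0.214 and 0.339. The closer pair was called with the B1/B2 term, with an edgeR adjusted p of 0.00106. From 2 other 5′ splice sites, the sites 4 bases apart were used upstream at 78.1% ± 2.51 in S34F and 79.1% ± 1.73 in wild type, and at 52.9% ± 8.74 and 61.3% ± 4.31 (SD, n = 3 each). The ranges overlapped in both.

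COX4I1, a subunit gene of cytochrome c oxidase, chooses between a CAG and an AAG 14 bases on. Reads of its 2 forms numbered 111, 36 and 50 in S34F libraries and 171, 117 and 81 in wild-type libraries. Its upstream usage was 40.5%, 52.8% and 70.0% in S34F, against 66.1%, 68.4% and 85.2% in wild type. The B2 library was the highest of each genotype and the ranges overlapped, although the mean difference of -18.8 points was among the widest of the named pairs. The log2 odds ratio was -1.24 (SE 0.42), with an edgeR adjusted p of 0.336, and 0.0108 with the B1/B2 term. COX4I1 holds 5 nearby pairs, and only this 1 stood at an unadjusted edgeR p under 0.05.

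Some of the 12 pairs differed in a minor form. MRPL22, a mitochondrial ribosomal protein gene, used its upstream site, 18 bases before the main one, at 1.05%, 0.310% and 1.07% in S34F, against 3.29%, 2.16% and 2.47% in wild type. RPL18, a cytosolic ribosomal protein gene with CAG at both sites 18 bases apart, had 1, 0 and 0 reads of the upstream form in S34F, against 7, 7 and 6 in wild type. S100A6 (calcyclin), 15 bases apart in the 5′ UTR, had 1.72%, 2.44% and 3.59% in S34F, against 5.46%, 4.90% and 5.36% in wild type. S34F libraries were below wild-type libraries without overlap in all 3 genes.

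None of the 3 was called, with edgeR adjusted p of 0.159 for MRPL22, 0.218 for RPL18 and 0.279 for S100A6. With the B1/B2 term MRPL22 and S100A6 were called (edgeR adjusted p = 0.0254 and 0.0231). S100A6 holds 9 nearby pairs, and 2 others stood at an unadjusted edgeR p under 0.05. One, 6 bases apart in the intron that starts at 153507677, sets 2 minor sites of that intron against each other, neither annotated. The main site, 3 bases before the first of them, took 94.9% ± 1.63 in S34F and 94.3% ± 1.69 in wild type of the reads it shares with that site (SD, n = 3 each). The minor pair had 56.2%, 53.8% and 47.3% in S34F, against 67.3%, 66.5% and 63.7% in wild type, with no overlap (edgeR adjusted p = 0.555). The other, 22 bases apart, has the same 5′ splice site and upstream site as the named pair. Its upstream reads are therefore those of the named pair, counted again. It had 13.3%, 15.8% and 31.6% in S34F, against 31%, 28.7% and 36.6% in wild type, with overlap (edgeR adjusted p = 0.49). From the intron that starts at 153508264 (396 reads), the sites of the named pair were used upstream at 38.6% ± 21.7 in S34F and 44.2% ± 9.72 in wild type (SD, n = 3 each). The ranges overlapped there (edgeR unadjusted p = 0.613).

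NSFL1C, the gene of a cofactor of the ATPase VCP, was used upstream at 5.74%, 7.64% and 5.63% in S34F, against 11.6%, 15.3% and 13.1% in wild type, at sites 4 bases apart of which GENCODE 29 lists the downstream one. Its ranges did not overlap, and its edgeR adjusted p was 0.238, and 0.0476 with the B1/B2 term.

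Besides MIR205HG, 4 of the 12 pairs had higher upstream usage in S34F. MEAK7, a gene of a protein tied to mTOR signalling, had 10, 15 and 10 reads of its 5′ UTR pair in S34F and 31, 17 and 27 in wild type. Its upstream site, 20 bases before the other, took 60.0%, 33.3% and 60.0% in S34F, against 9.68%, 23.5% and 7.41% in wild type. The groups were apart, with a log2 odds ratio of 2.73 (SE 0.74) and an edgeR adjusted p of 0.113. It was called with the B1/B2 term (edgeR adjusted p = 0.0339) and with the isolate 2 libraries summed (0.0434).

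A locus without a gene ID (chromosome 4, sites at 44964389 and 44964415) has 2 sites 26 bases apart. It had 116, 38 and 70 reads in S34F libraries and 341, 320 and 124 in wild-type libraries. The upstream site took 74.1%, 79.0% and 88.6% in S34F, against 63.6%, 63.8% and 59.7% in wild type. The ranges did not overlap (edgeR adjusted p = 0.204, and 0.0295 with the B1/B2 term). WDR45 (an autophagy protein gene, 11 bases apart) and RRP36 (a ribosomal RNA processing gene, 15 bases apart) had no downstream read in S34F. In wild type, WDR45 had 7, 6 and 2 downstream reads among 85, 54 and 73, and RRP36 had 6, 7 and 1 among 44, 31 and 36. S34F held 80 reads of the WDR45 pair and 46 of the RRP36 pair, so a count of 0 allows a downstream share of up to 3.75% and 6.52% there, for counting error only.

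**Figure D4:**
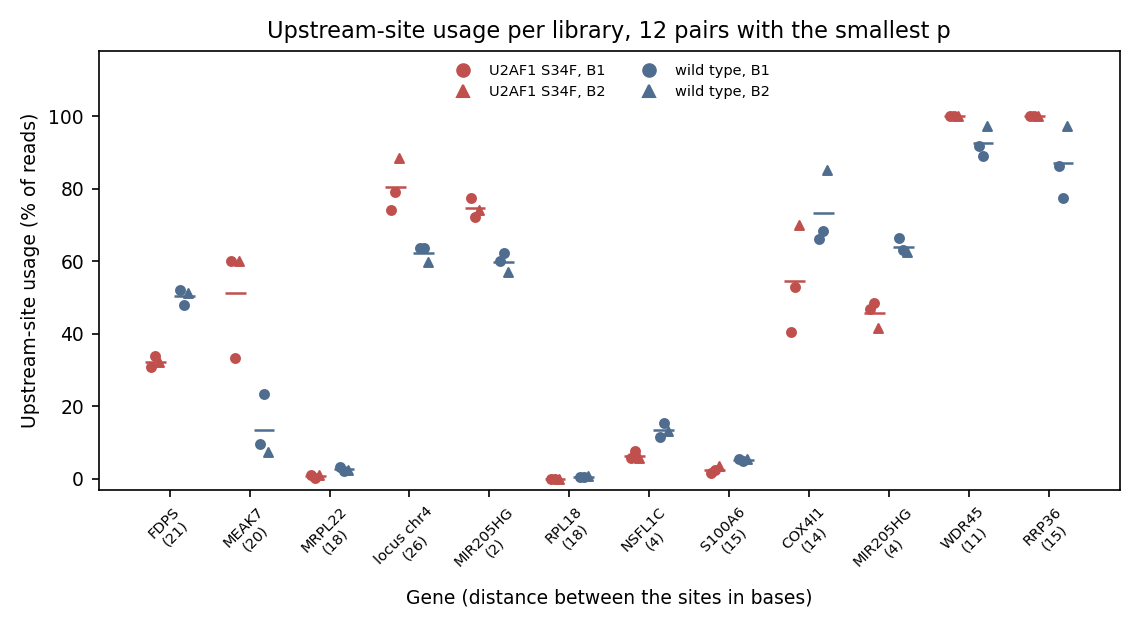
Upstream-site usage (% of reads) in each library for the 12 nearby pairs with the smallest p, S34F in red left of wild type in blue, with triangles for B2 libraries, bars for means and the distance in bases in brackets. In 11 of the 12 pairs the genotypes do not overlap, and COX4I1 is the exception.

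Of these 12 pairs, 5 were higher and 7 lower in S34F, and 8 lay over 12 bases apart. Both sites were annotated in 4 of them, 5 differed by a multiple of 3, and the rarer form was below 5% in 3. They were ranked by p, so their lack of overlap describes them and is no separate result.

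The pairs were also grouped by the base before the AG. Pairs with TAG upstream and CAG downstream, the arrangement of FDPS, numbered 112 and had a median difference of -0.0690 points, with 52 higher and 60 lower in S34F. With both sites annotated, 45 such pairs had a median of -0.784 points, with 16 higher and 29 lower. The reverse arrangement, CAG then TAG, gave 0.0792 points over 49 pairs (27 higher, 22 lower) and 0.0410 over the 26 with both sites annotated (14 higher, 12 lower). For comparison, whatever the annotation, pairs with CAG at both sites had a median of -0.0674 points over 310 pairs. The median was -0.833 over 24 pairs with TAG at both (8 higher, 16 lower), and -0.0819 over all nearby pairs. With both sites annotated, it was -0.104 over 125 pairs with CAG at both (59 higher, 66 lower). It was -0.833 over 10 such pairs with TAG at both (3 higher, 7 lower), and -0.125 over all 657 (311 higher, 346 lower). These counts describe sets read with no test, and the upstream triplet is known only where an annotated transcript covers it.

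Genes of RNA binding and splicing proteins held 50 of the pairs, in 30 genes, of which 24 were higher and 26 lower in S34F and 2 (4%) had an unadjusted edgeR p under 0.05, beside 3.61% of nearby pairs and 7.87% of all pairs. In SRSF5, an SR protein gene with sites 3 bases apart, usage was 95%, 91.2% and 82.4% in S34F, against 66.3%, 71.1% and 80.9% in wild type on 391 reads in all. The S34F libraries were all higher, the nearest values being those of B2. In RBM39, a U2AF-related splicing factor gene, usage was 73.8%, 88.3% and 86.2% in S34F, against 93.3%, 92.1% and 92.3% in wild type. Neither was called, with edgeR adjusted p of 0.508 for SRSF5 and 0.513 for RBM39.

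Ribosomal protein genes held 150 pairs in 60 genes, with 64 higher and 86 lower in S34F and 3 (2%) at an unadjusted edgeR p under 0.05, below the 3.61% of nearby pairs. Besides RPL18 these include RPL15, used upstream at 5.77%, 20.8% and 18.2% in S34F, against 28.5%, 18.6% and 31.6% in wild type, with overlap. Targets of S34F named in earlier work held 16 pairs in 8 genes, with 9 higher and 7 lower and 1 (6.25%) at an unadjusted p under 0.05. That pair was in SERF2, where the minor upstream CAG, 23 bases before another CAG, took 0.879%, 0.958% and 1.37% in S34F, against 1.90%, 2.10% and 1.91% in wild type. Its ranges were apart, and its edgeR adjusted p was 0.493.

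GNAS encodes the stimulatory G protein alpha subunit, and its sites 3 bases apart are a known serine insertion. The upstream site, after TG, took 22.2%, 31.9% and 19.8% in S34F, against 27.6%, 22.9% and 33.3% in wild type, and the ranges overlapped (edgeR adjusted p = 0.909). Chromatin genes held 4 pairs in 3 genes, 3 higher and 1 lower in S34F. CHD4, a helicase of the NuRD complex, was used upstream at 91.6% ± 5.18 in S34F and 85.4% ± 5.05 in wild type, and HDAC3, a histone deacetylase, at 9.03% ± 3.11 and 7.76% ± 4.78 (SD, n = 3 each). Of 8 genes known for tandem acceptors, such as PAX3 and ING4, none had a pair with enough reads. No pair of any of these lists was called in the main result. THRAP3, one of the splicing genes, was called only without wild-type replicate 3, as given above.

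The B2 libraries were set beside the B1 libraries of their genotype, for nearby pairs only. In 548 pairs (27.9%) the B2 library was above both B1 libraries in both genotypes, and in 166 (8.44%) it was below both in both. The share over all 14823 pairs was not counted, so these counts do not show a trait of nearby pairs. With so few libraries, some pairs take either order without any difference between B1 and B2. The share with B2 above was 46.3% at 1 to 2 bases, 28.6% at 3, 32.8% at 4 to 12 and 18.9% at 13 to 30 bases. Median usage over all pairs was 85.7% in the S34F B2 library and 82.7% and 84.1% in the S34F B1 libraries, and 86.6% in the wild-type B2 library and 83.5% and 83.7% in the wild-type B1 libraries. Each genotype has 1 B2 library, so B1 and B2 are balanced between the genotypes, and the value with the B1/B2 term is given beside each result whose call it changes. With that term, RPL18, WDR45, RRP36, SRSF5, RBM39, SERF2 and the MIR205HG pair 4 bases apart were not called (edgeR adjusted p 0.116 to 0.343). ARPC1B, an actin-nucleating complex subunit gene with sites 4 bases apart, was used upstream at 78.4%, 83.3% and 88.8% in S34F, against 87.6%, 88.5% and 93.2% in wild type. Its ranges overlapped, the B2 library was the highest of each genotype, and the edgeR adjusted p was 0.516, and 0.00657 with the B1/B2 term.

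THRAP3, a splicing-associated gene 3 bases apart, and PCBP2, an RNA-binding protein gene, were 2 of 8 pairs in 7 genes whose B2 library lay over 20 points from the mean of the B1 libraries in both genotypes. These 8 were chosen after their values were seen. THRAP3 had 145, 137 and 3075 reads in S34F libraries and 308, 195 and 4967 in wild type. Its upstream usage was 49.0%, 70.1% and 7.41% in S34F, against 67.9%, 61.0% and 5.96% in wild type. The downstream CAG thus took most reads in both B2 libraries and a smaller share in every B1 library, and the genotypes overlapped.

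PCBP2, 5 bases apart, had 74, 26 and 512 reads in S34F libraries and 93, 83 and 521 in wild type. Of these, 18, 6 and 420 were downstream reads in S34F and 24, 19 and 403 in wild type. It was used upstream at 75.7%, 76.9% and 18% in S34F, against 74.2%, 77.1% and 22.6% in wild type. A PCBP2 pair 12 bases apart had its highest usage in B2, with 85.1% in S34F and 81.3% in wild type. RPS6, a ribosomal protein gene, was used upstream at 64.6%, 70.6% and 90.3% in S34F, against 68.5%, 74.0% and 93.0% in wild type. In each of these pairs the B2 libraries of the genotypes lay closer to each other than to their own B1 libraries.

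**Figure D5:**
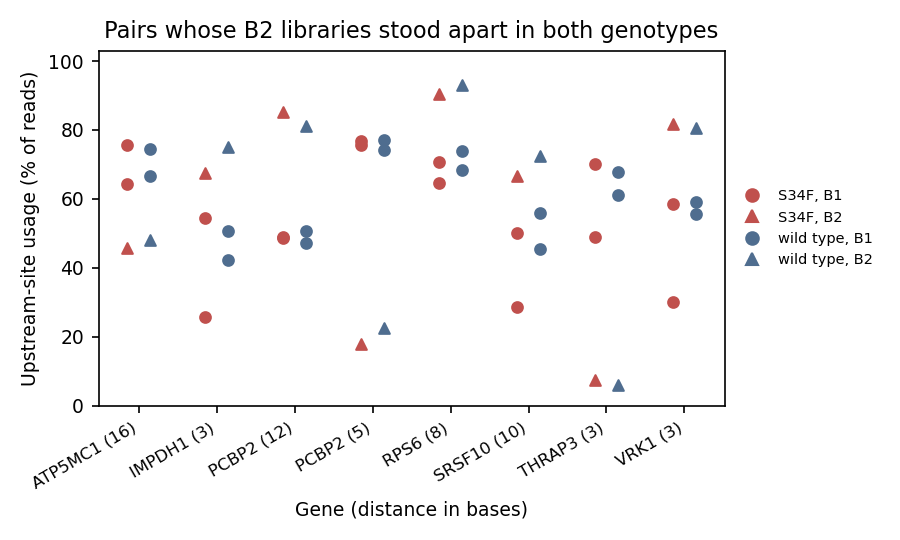
Upstream-site usage (% of reads) in each library for the 8 pairs whose B2 library (triangles) lay over 20 points from the mean of the B1 libraries (circles) in both genotypes, S34F in red left of wild type in blue. THRAP3 stands at 7.41% in the S34F B2 library and 5.96% in the wild-type B2 library, against 49.0% to 70.1% in the B1 libraries.

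In level and spread, nearby pairs can be set beside pairs further apart, as a description. The rarer form had a median of 10.4% of reads, against 3.29% in 2240 alternative 3′ sites further apart, and the median SD between S34F libraries was 3.21 against 1.43 points. Of those distant pairs 11 were called (0.491%), and 10.1% had an unadjusted p under 0.05. The difference in calls between near and distant pairs was not tested. The sources used here do not say how reads were assigned to forms a few bases apart, and the part of read errors near the junction in the spread was not tested.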

How the data were processed

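Per the labels' protocols, cDNA was made from poly(A)-primed RNA after Smart-Seq2 and sequenced on a MinION with 1D chemistry. The authors deposited raw counts of long reads per isoform and library (63224 isoforms) and isoform models, tied to FLAIR by a file name alone. Positions are in hg19, the build named in the submitters' processing notes. The sources used here give no aligner, filter, read assignment rule or strand setting.

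Pairs were built from the models, and the counts of isoforms with each junction were summed per library (Python 3.11.15, pandas 2.3.3, numpy 2.4.6, matplotlib 3.10.9). A pair needed at least 10 reads in every library. The 2 counts per library were fitted with edgeR 4.0.16 in R 4.3.3 over all 14823 pairs. The fit had library terms, a form term and a form by genotype term, which leaves 4 residual degrees of freedom per pair. The spread pooled over pairs entered with 35.5 prior degrees of freedom, so it had more weight than a pair's own spread. Adjusted p-values follow Benjamini-Hochberg. The code was tested on counts simulated without a B1/B2 difference. That checks the code only, not how well the test finds differences in these data. DESeq2 1.42.0, limma 3.58.1 on log odds (offset 0.5) and 16 further settings were alternatives. Sites were matched to GENCODE 29 by gene ID and intron length (1752 pairs, 89.1%), since a genome of the build was not used here. Symbols were found for 1948 pairs.

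Named pairs are the 12 with the smallest p, the 3 with most reads per distance class, those with the smallest p per gene list, and those called under an alternative, which were added after their values were seen. The members and lists were chosen with earlier results of these data known. Counting intervals and floors (3 reads) cover counting error only, since reads without molecular identifiers are not independent molecules.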

Additional observations from a re-analysis of the deposited data

How the results depend on the processing

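The count of nearby pairs called was 0 and stayed at 0 with DESeq2, limma on log odds, at least 20 reads in every library (edgeR, 55 at an unadjusted p under 0.05), no minimum (102), nearby pairs fitted alone (74), equal depth (48) and, chosen after seeing the data, both sites annotated (27). It was 1 with a rarer form of at least 5% (FDPS; 0.889% of all pairs called in that fit), 9 with the B1/B2 term (1.16%), 2 with isolate 2 summed (FDPS and MEAK7; 0.614%) and 2 in the B1 libraries alone (FDPS and S100A6; 0.31%). Leaving out 1 library each gave 0 to 2, the 2 without wild-type replicate 3 (0.513%). The 9 calls with the B1/B2 term were FDPS, MIR205HG (2 bases apart), ARPC1B, COX4I1, S100A6, MRPL22, the chromosome 4 locus, MEAK7 and NSFL1C. With a replicate block 2 pairs were called (FDPS and MRPL22; 0.668% of all pairs). Same-numbered libraries did not deviate together throughout (r of deviations over 1459 pairs 0.102, 0.0108 and 0.326 for numbers 1, 2 and 3), and not every library correlated best with its own number, so the numbers were not taken to pair the libraries. The cause of the changes in the count was not tested. Prior degrees of freedom were infinite with the B1/B2 term, the replicate block, isolate 2 summed, B1 alone and without wild-type replicate 3. In those fits the spread came from all pairs together and a pair's own spread did not enter. The same held with no minimum and at equal depth, where no nearby pair was called.

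The 12 pairs with the smallest p kept their sign in every alternative that gave a value. Log2 odds ratios that changed sign belonged to 12 other named pairs, none of them called in the main result. In B1 alone they were 0.0379 for GNAS, 0.0371 for PCBP2 (5 bases apart), -0.108 for HDAC3 and -0.00727 for RPL13A. At equal depth they were 0.25 for GNAS, -1.07 for HDAC3 and 0.10 for THRAP3. With isolate 2 summed they were 0.0286 for S100A2 and 0.0488 for ACTB. Leaving out 1 library gave -2.15 to 1.56 for PCBP2, -1.98 to 1.27 for THRAP3, -0.54 to 0.046 for RPS14 (7 bases apart), -0.41 to 0.057 for UQCRQ, -0.0438 to 0.48 for GAPDH, -0.31 to 0.0855 for RPL35, -0.0901 to 0.44 for RPL13A, -0.31 to 0.0833 for ANXA2, -0.31 to 0.21 for S100A2 and -0.33 to 0.25 for ACTB. The shallowest library had a median of 53 reads per pair.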

Other observations

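All 9 nearby pairs with a difference of over 20 points were looked up after the values were seen. MEAK7 is described above, and each of the others had 261 reads or fewer in all and was not called. Of these 8, 4 were lower in S34F. PRDX1, a peroxiredoxin gene, was used upstream at 15.4%, 52.4% and 41.2% in S34F, against 63.2%, 61.9% and 56.2% in wild type, and CTSD, the gene of the protease cathepsin D, at 40%, 54.5% and 33.3% in S34F, against 58.6%, 66.7% and 64.3% in wild type. The ranges were apart in both, with edgeR adjusted p of 0.65 and 0.728. NFYC, a subunit gene of the transcription factor NF-Y with CAG at both sites 3 bases apart, had 70.0%, 50% and 95.5% in S34F, against 100%, 91.7% and 93.8% in wild type (edgeR adjusted p = 0.435). VBP1, a prefoldin subunit gene, had 27.3%, 64.3% and 78.4% in S34F, against 65.6%, 78.6% and 89.7% in wild type (edgeR adjusted p = 0.819). The ranges of NFYC and VBP1 overlapped.

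The other 4 were higher in S34F. ENO1, a glycolysis enzyme gene, had 90.0%, 70.0% and 47.6% in S34F, against 40%, 36.4% and 27.8% in wild type, and PRDX5, another peroxiredoxin gene, 54.5%, 69.2% and 63.2% in S34F, against 38.6%, 45.5% and 30.6% in wild type. The ranges were apart in both, with an edgeR adjusted p of 0.49 in each. GMPPA, a gene of GDP-mannose metabolism with AAG before TAG in its 5′ UTR, had 73.3%, 45.5% and 72.2% in S34F, against 29.6%, 50% and 37.5% in wild type (edgeR adjusted p = 0.421). ANXA5, the gene of annexin A5, had 87.5%, 57.9% and 65.0% in S34F, against 47.9%, 36.8% and 62.2% in wild type (edgeR adjusted p = 0.71). The ranges of GMPPA and ANXA5 overlapped.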
